A study of Mus musculus with 4 samples.

Results

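The genes described here are the nuclear-encoded genes of oxidative phosphorylation. They were chosen by symbol alone: a gene was a member if its symbol began with Nduf, Uqcr or Atp5, was Cox4 to Cox8 followed by a letter, or was Sdha, Sdhb, Sdhc, Sdhd, Cyc1 or Cycs. This gave 92 of the 20946 condensed genes, a condensed gene being the merged RefSeq exon blocks of all isoforms that share a symbol on mouse genome build mm9. Another 2 symbols, Atp5l-ps1 and Atp5l2, met the rule but had no exon block. The members comprised 36 genes of complex I, 4 of complex II, 9 of complex III, the electron carrier gene Cycs, 20 of complex IV and 15 of complex V, which together are 85 structural genes. The remaining members were 4 complex I assembly factors, Ndufaf1 to Ndufaf4, and 3 genes that met the rule by symbol and were placed in no complex here, Cox4nb, Atp5s and Atp5sl. The rule itself uses no measured value, but it was set with earlier results of these data known.

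Oxidative phosphorylation takes place in the inner mitochondrial membrane. Complexes I and II pass electrons from NADH and succinate to ubiquinone, complex III passes them on to cytochrome c, complex IV transfers them to oxygen, and complex V, the ATP synthase, uses the proton gradient so formed to make ATP. Each complex except complex II combines subunits encoded in the mitochondrial genome with a larger set of nuclear-encoded subunits. In the intestine, epithelial nutrient and ion transport and smooth muscle contraction both draw on this ATP. The mitochondrially encoded subunits were not analysed here.

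RNA sequencing libraries had been prepared from small intestine and colon of C57BL/6 mice, 9 to 10 weeks old, with no genetic change or treatment in any group. The mice had been kept under specific pathogen free conditions. The study's methods name the tissues as jejunum and distal colon, frozen whole, so each library holds the RNA of epithelium, muscle and all other layers. There were 4 libraries, 1 for each tissue and protocol. The "cDNA fragmented" libraries had been made from polyadenylated RNA by oligo-dT primed, template-switched and PCR-amplified cDNA that was then sheared, and the "rRNA-depleted" libraries by fragmenting RNA before a strand-preserving adaptor ligation. The labels name the latter pair ribosomal RNA depleted, whereas the study's methods describe polyadenylated RNA as its input. The deposited files of this pair cover 36419942 and 37466674 reads of 35 bases. The study's account of its RNA fragmented libraries lists more and longer reads, so what it says of their RNA input, isolation kit and instrument may not describe this pair. Library kit and depth changed together with the protocol, and how many mice went into each library was not given in the sources used here. Uniquely placed reads numbered 22484041 (small intestine) and 24798934 (colon) by the cDNA fragmented protocol, and 2035386 and 3478387 by the rRNA-depleted one.

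With 1 library per tissue and protocol there was no replicate error, and no difference between tissues or protocols was tested. A fit of tissue with protocol as a block would take its error from the gap between the protocols, and was not run. Ratios are given with 95% exact intervals on the split of reads between the libraries compared. These cover counting error only and not the spread between animals. The intervals also treat each read as independent. Where many reads of a gene share a start position, they may be too narrow even for counting error. Levels are in RPKM, reads per 1000 exonic bases and per 1000000 uniquely placed reads. Where 4 values are given for a gene or list, the first pair is small intestine then colon by the cDNA fragmented protocol, and the last pair is small intestine then colon by the rRNA-depleted one. Log2 ratios were computed after adding 0.1 RPKM.

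Several members have near-identical relatives, and this decided which reads could be counted, since a read was kept only if it matched a single place among the exon blocks. The c ring of the ATP synthase, the rotor that protons turn, is encoded by Atp5g1 on chromosome 11, Atp5g2 on chromosome 15 and Atp5g3 on chromosome 2. Their last 228 coding bases, which encode the same 75 amino acids, are shown because reads on them are still assigned to a single gene. Capitals mark the 58 positions at which any of the genes differs:
Atp5g1: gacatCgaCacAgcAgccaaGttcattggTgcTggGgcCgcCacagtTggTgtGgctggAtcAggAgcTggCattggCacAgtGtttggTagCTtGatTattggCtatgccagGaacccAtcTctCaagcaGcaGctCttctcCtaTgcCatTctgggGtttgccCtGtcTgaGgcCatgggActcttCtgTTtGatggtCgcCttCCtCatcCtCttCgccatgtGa
Atp5g2: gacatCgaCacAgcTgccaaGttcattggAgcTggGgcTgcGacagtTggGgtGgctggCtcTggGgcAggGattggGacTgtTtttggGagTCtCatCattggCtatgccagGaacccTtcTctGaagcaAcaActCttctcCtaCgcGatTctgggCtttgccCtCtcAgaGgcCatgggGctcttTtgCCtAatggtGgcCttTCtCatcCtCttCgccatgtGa
Atp5g3: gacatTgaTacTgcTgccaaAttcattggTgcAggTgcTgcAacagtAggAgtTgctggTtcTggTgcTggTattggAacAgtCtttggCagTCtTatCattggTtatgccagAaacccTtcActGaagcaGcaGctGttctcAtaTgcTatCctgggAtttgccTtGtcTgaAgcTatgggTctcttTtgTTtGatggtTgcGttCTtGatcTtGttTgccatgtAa

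Between Atp5g1 and Atp5g2, 34 of the 228 bases differed, with 46 between Atp5g1 and Atp5g3 and 49 between Atp5g2 and Atp5g3. The longest identical run was 21 bases, and no window of 35 bases, the read length, was shared by any pair. Among these genes the reads could therefore be told apart. Copies outside the exon blocks are another matter, since a read was judged unique among exons and junctions only. Elsewhere in the mm9 genome, 100% of the 35-base windows of Atp5g2 and 82.8% of those of Atp5g1 recurred, as did 88% for Atp5l, 86.4% for Ndufb4, 80.3% for Atp5h, 73.8% for Uqcrb, 67.2% for Cox5b and 65.8% for Cox7a2l. Smaller shares recurred for other members, among them 60.1% for Ndufs3, 38.3% for Cycs, 35.7% for Atp5f1 and 31.1% for Atp5o, while some members had none. Any reads from such copies would be counted for these genes, and their values are uncertain to that extent.

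For Ndufs5, an accessory subunit of complex I, and Cox7c, a small subunit of complex IV, this was not so. The first 120 coding bases of each are shown with the processed copy that the exon table also holds, with capitals at the bases that differ; BC002163 lies at chr16:42955744-42955863 and Gm10012 at chr17:26038807-26038926 (mm9):
Ndufs5: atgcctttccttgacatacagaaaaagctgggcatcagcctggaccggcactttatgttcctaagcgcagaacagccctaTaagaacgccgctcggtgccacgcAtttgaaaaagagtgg
BC002163: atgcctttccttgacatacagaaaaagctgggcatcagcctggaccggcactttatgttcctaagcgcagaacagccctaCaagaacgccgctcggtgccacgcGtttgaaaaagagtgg
Cox7c: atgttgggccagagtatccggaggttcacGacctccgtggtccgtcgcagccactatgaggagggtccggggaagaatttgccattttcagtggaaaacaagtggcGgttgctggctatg
Gm10012: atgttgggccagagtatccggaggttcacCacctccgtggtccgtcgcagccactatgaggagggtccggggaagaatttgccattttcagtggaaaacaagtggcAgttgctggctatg

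Over the whole coding sequence, Ndufs5 and its copy differed at 2 of 321 bases, and Cox7c and its copy at 2 of 192. Of the 35-base windows of the coding sequence, 228 of 287 were identical for Ndufs5 and 93 of 158 for Cox7c, and reads from these windows could not be placed uniquely. Ndufs5 held 63, 108, 0 and 4 uniquely placed reads in the cDNA fragmented small intestine, cDNA fragmented colon, rRNA-depleted small intestine and rRNA-depleted colon libraries, the order in which 4 values are given from here on. Its copy held 285, 576, 8 and 15. The reads of Ndufs5 and of Cox7c are thus uncertain. In the exon blocks 79.4 and 42.1% of all their 35-base windows recurred, and in the whole mm9 genome 84.3 and 85.9%. Reads were lost to the copies in the exon blocks, while any from copies elsewhere would be added. Whether their levels are understated or overstated is therefore unknown.

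The members took 3.27, 4.40, 0.961 and 1.26% of all uniquely placed reads. In the cDNA fragmented libraries the exact 95% intervals of these shares were 3.27 to 3.28% and 4.39 to 4.41%, and in the rRNA-depleted libraries 0.948 to 0.975% and 1.25 to 1.27%. The share was higher in colon than in small intestine by both protocols, 1.34-fold and 1.31-fold in summed reads scaled by library totals, and it was lower by the rRNA-depleted protocol in both tissues. With each start position counted once the shares were 1.085, 1.075, 0.742 and 0.697%, and the order of the tissues turned. This count had less room to differ in the cDNA fragmented libraries. There, 73.0 and 77.9% of the start positions of the median member were in use. In bulk tissue, fewer cells of a type and less RNA per cell cannot be told apart.

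Complex V took the largest share in every library, at 0.964, 1.16, 0.408 and 0.467%. Complex IV and complex I followed in the cDNA fragmented small intestine library with 0.655 and 0.633%, and in the colon library of that protocol with 1.06 and 1.02%. In the rRNA-depleted small intestine library, by contrast, complex I held 0.167%, complex III 0.144% and complex IV 0.132%. The 4 genes of complex II held 0.347, 0.327, 0.0778 and 0.0608%, the only complex whose share was lower in colon by both protocols. Cycs, a single gene, held 0.286, 0.203, 0.0227 and 0.0296%.

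The median member reached 304.5, 528.4, 67.7 and 84.9 RPKM, against 2.57, 2.98, 5.69 and 6.08 RPKM over all genes with at least 1 read. Of the 500 genes with the highest RPKM, 58, 65, 30 and 34 were members. Within the cDNA fragmented small intestine library the median was lowest for complex I at 199 RPKM and highest for complex V at 661, with complexes II, III and IV at 641, 436 and 468 RPKM. In the colon library of that protocol complex I was lowest as well, at 343 RPKM, but complex III was highest at 899, above complex V at 794. Complex I was also lowest and complex V highest in the rRNA-depleted libraries, with medians of 42.9 and 60.8 RPKM for complex I and of 218 and 269 for complex V.

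**Figure D1:**
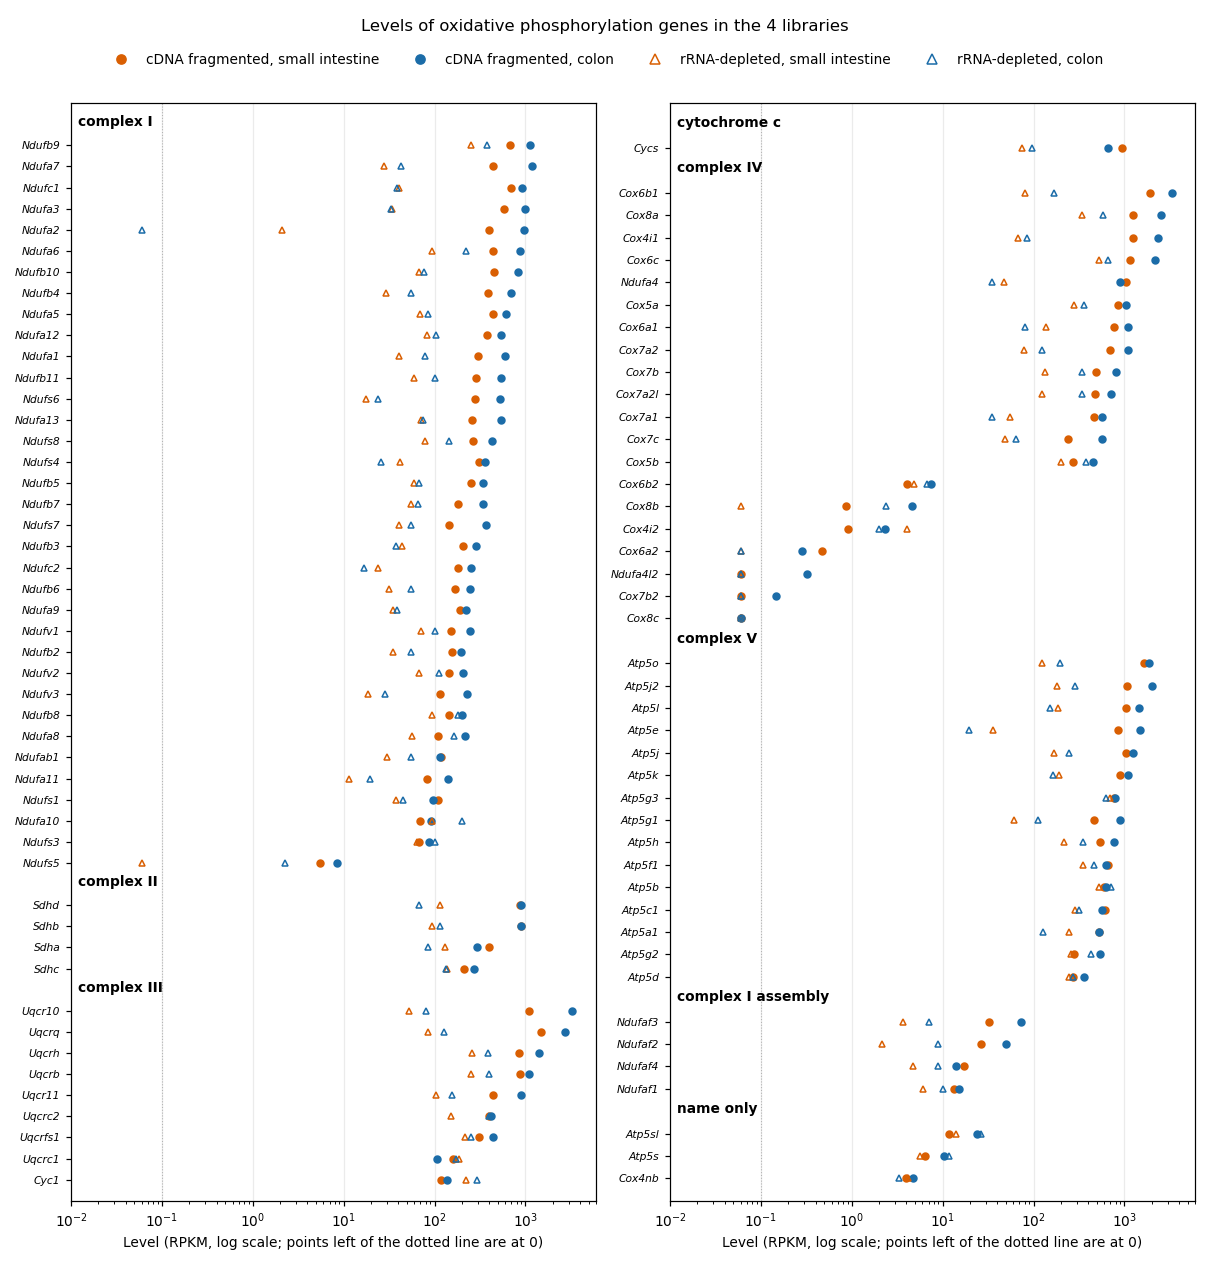
Levels of the members in the 4 libraries, by complex, with 1 member not drawn. Each row is 1 gene, the horizontal axis is RPKM on a log scale, filled circles are the cDNA fragmented and open triangles the rRNA-depleted libraries, orange is small intestine and blue colon, and symbols left of the dotted line are at 0 reads. Most circles lie to the right of the triangles of the same gene, with medians over all members of 304.5 and 528.4 against 67.7 and 84.9 RPKM.

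Small subunits were among the highest members of the cDNA fragmented libraries. Cox6b1 (chr7:31401993-31411170, mm9), a complex IV subunit on the outer face of the membrane that helps join the enzyme into dimers, was at rank 44 in small intestine and rank 18 in colon among all genes, with 1911, 3322, 80.7 and 167 RPKM, the highest of the members in both. Uqcrq and Uqcr10, small subunits of complex III, reached 1485 and 1104 RPKM in the cDNA fragmented small intestine library and 2734 and 3235 in colon. Both were far lower in the rRNA-depleted libraries, where Uqcrq had 84.7 and 128 RPKM and Uqcr10 52.4 and 80.8.

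In the rRNA-depleted libraries the 3 highest members were Atp5g3, at 774, 794, 689.6 and 624 RPKM, Atp5b, the catalytic beta subunit of the ATP synthase, at 594, 632, 529.7 and 705 RPKM, and Cox6c, a small subunit of complex IV, at 1165, 2160, 519 and 666 RPKM. Atp5g3 and Atp5b differed less among the 4 libraries than Cox6b1, Uqcrq or Uqcr10. The order of members by level thus depended on the protocol.

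At the low end, the isoforms known from heart, skeletal muscle, lung or testis had few reads. Cox6a2 and Cox8b, the heart and skeletal muscle forms of complex IV subunits, had 3, 2, 0 and 0 and 7, 41, 0 and 3 reads. Cox7b2 and Cox8c, testis forms, had 0, 2, 0 and 0 reads and 0 reads in all 4 libraries. A count of 0 allows up to 3 reads. Cox4i2, the lung and hypoxia-associated form of subunit IV, had 15, 42, 6 and 5 reads, and Ndufa4l2 had 0, 2, 0 and 0.

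The ubiquitous partner of each of these genes was far higher. Cox4i1 reached 1232, 2316, 68.0 and 83.8 RPKM and made up 99.9% of the RPKM of the Cox4 pair in both cDNA fragmented libraries and 94.4 and 97.7% in the rRNA-depleted ones. Cox8a held 99.9, 99.8 and 99.6% of the RPKM of its set where another gene of it had reads and all of it in the rRNA-depleted small intestine library, and Cox6b1 99.8, 99.8, 94.3 and 96.2% of the RPKM it shared with the testis form Cox6b2. In the rRNA-depleted libraries the shares of the minor forms Cox4i2 and Cox6b2 rest on 5 to 14 reads a library.

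The Cox7a set was an exception. Cox7a1, the form known from heart and skeletal muscle, had 467, 568, 55 and 34.6 RPKM, beside 689, 1091, 78.2 and 123 for the ubiquitous Cox7a2 and 469, 717, 123 and 338 for Cox7a2l, a relative that takes part in joining respiratory complexes into supercomplexes. By the cDNA fragmented protocol Cox7a1 therefore made up 28.7% of the set in small intestine and 23.9% in colon, and 21.5 and 6.98% by the rRNA-depleted one. The share of Cox7a1 was lower in colon by both protocols. The 10 markers of striated muscle summed to 15.3, 21.9, 6.29 and 18.1 RPKM in the same libraries. Most of this came from Ckm, muscle creatine kinase, at 5.82, 11.8, 3.13 and 15.6 RPKM, and Acta1, skeletal muscle actin, at 9.37, 9.34, 3.09 and 1.81 RPKM, while Myh4, Myh6 and Myh7 were at 0 reads in all 4. Adipocyte markers summed to 94.5, 267.9, 31.1 and 79.8 RPKM, with Ucp1 at 0 in all 4. The part of these cells in the values of Cox7a1 was not tested.

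The c subunit genes showed another split between isoforms. Atp5g1 was 1.92-fold (95% interval 1.87 to 1.97) and 1.86-fold (1.5 to 2.34) higher in colon by the cDNA fragmented and rRNA-depleted protocols, from 465 to 893 and 60.6 to 113 RPKM, though its log2 ratio in the former pair was −0.013 with each start position counted once. Atp5g2 was 1.95-fold (1.88 to 2.02) and 1.66-fold (1.47 to 1.88) higher, from 276 to 538 and 259.7 to 431 RPKM. Atp5g3 hardly differed between tissues, with ratios of 1.03 and 0.905.

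The part of Atp5g3 in the summed RPKM of the set was accordingly lower in colon, 51.1 against 35.7% by the cDNA fragmented protocol and 68.3 against 53.4% by the rRNA-depleted one. Since all 3 genes encode the same mature c subunit, as the sequences above show, the tissues differed in how the reads fell among the genes as well as in the sum. Atp5g1 contributed 30.7 and 40.1% by the cDNA fragmented protocol but only 6.00 and 9.67% by the rRNA-depleted one, so the leading gene in colon, Atp5g1 or Atp5g3, was not the same by both protocols.

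**Figure D2:**
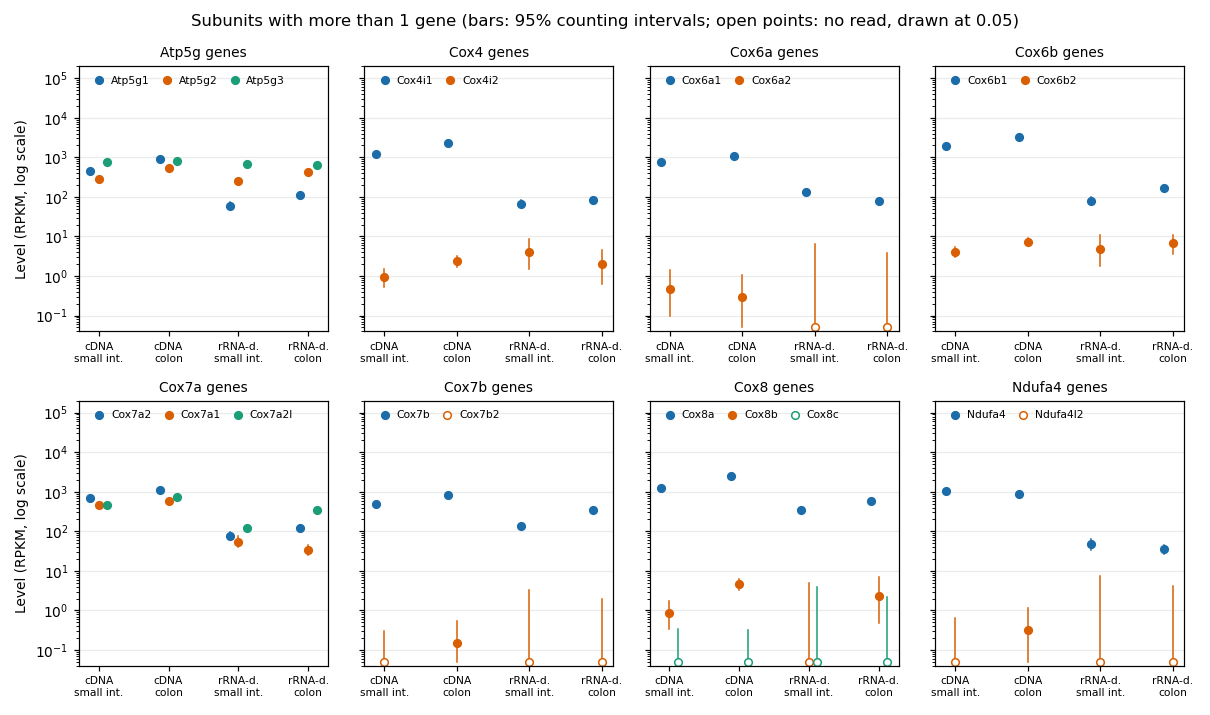
Levels of subunits encoded by more than 1 gene in the 4 libraries. The vertical axis is RPKM on a log scale, bars are exact 95% counting intervals, and open points are genes without a read. Within a library the c subunit genes lie within about an order of magnitude of each other (60.6 to 689.6 RPKM in rRNA-depleted small intestine), as do the Cox7a genes (34.6 to 338 RPKM in rRNA-depleted colon), while Cox4i1, Cox6b1 and Cox8a lie far above their tissue isoforms.

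Between tissues, the members as a group were modestly higher in colon, and by little more than all genes were. Over the 88 members with at least 20 reads in the cDNA fragmented pair, the median log2 ratio of colon over small intestine was 0.54, against 0.37 over all 14244 genes with as many reads. Over the 84 such members of the rRNA-depleted pair it was 0.52, against 0.40 over 11953 genes. The members therefore lay 0.17 and 0.13 above the shift of all genes. Scaled by median-of-ratios size factors, their medians were 0.14 and 0.18, and when each start position was counted once they were −0.005 and 0.000, so the direction did not hold under the latter count. In the cDNA fragmented libraries 73.0 and 77.9% of the start positions of the median member were already in use. This count therefore had limited room to show a higher level in colon there, and the same limit bears on single members of that pair. In the rRNA-depleted libraries only 8.66 and 14.4% were in use. The 4 members without 20 reads in the cDNA fragmented pair were Cox6a2, Cox7b2, Cox8c and Ndufa4l2, and the rRNA-depleted pair also lacked Cox4i2, Cox8b, Ndufa2 and Ndufs5.

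In the cDNA fragmented pair, 43 of 88 members (48.9%) were at least 1.5-fold higher in colon, where 42.1% of all genes were, and 1 member (1.14%), Uqcrc1, was at least 1.5-fold higher in small intestine, where 15.8% of all genes were. In the rRNA-depleted pair, 39 of 84 (46.4%) were higher in colon against a background of 42.6%. There, 7 members (8.33%) were higher in small intestine against 19.4% of all genes, namely Atp5a1, Atp5e, Cox6a1, Cox7a1, Ndufs4, Sdha and Sdhd. The share of members higher in colon was thus near the background, and the share higher in small intestine was below it by both protocols. Under median-of-ratios size factors in place of library totals, 14 members (15.9%) were higher in colon and 5 (5.68%) in small intestine by the cDNA fragmented protocol, against 26.6 and 26.9% of all genes, and 11 (13.1%) in each direction by the rRNA-depleted protocol, against 30.1 and 27.6%. No member passed the study's 3-fold rule, in which 1 RPKM is added to the divisor, in either direction by either protocol. Of all genes, 3.70% passed it in colon and 3.15% in small intestine in the cDNA fragmented pair. In the rRNA-depleted pair 7.90% passed it in colon and 4.42% in small intestine.

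**Figure D3:**
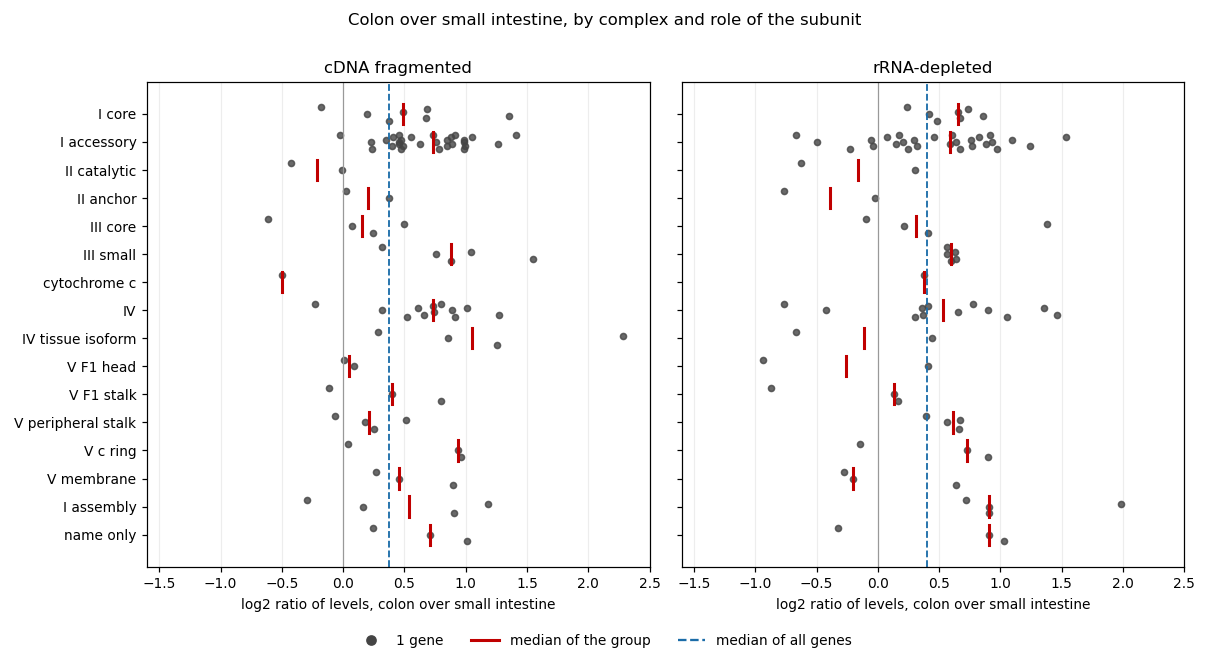
Log2 ratios of colon over small intestine for each member, by role, in the cDNA fragmented and the rRNA-depleted pair. Points are genes with at least 20 reads in the pair, vertical bars are medians of the roles, and the dashed lines mark the medians of all genes (0.37 and 0.40). The medians of the small subunits of complex III (0.88 and 0.59) lie to the right of these lines, and those of complex II and the F1 head to the left.

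Complex I, the NADH dehydrogenase, had medians of 0.65 and 0.60 on the log2 scale. Its core subunits had a median of 0.49 and its accessory subunits one of 0.74 in the cDNA fragmented pair, and in the rRNA-depleted pair the core median lay above the 0.59 of the accessory subunits. Its core subunits carry the flavin and the iron-sulfur clusters. Ndufs8, which holds iron-sulfur clusters, was 1.61-fold (1.56 to 1.66) and 1.81-fold (1.51 to 2.18) higher, from 266 to 429 and from 79.6 to 144 RPKM. Ndufs7 was 2.55-fold (2.44 to 2.67) higher in the cDNA fragmented pair, from 144 to 367 RPKM, and had a ratio of 1.34 (0.988 to 1.83) in the rRNA-depleted pair.

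Other core subunits had smaller ratios than Ndufs7 in the cDNA fragmented pair, though not in every case in the rRNA-depleted pair. Ndufv1, which binds NADH and flavin, had ratios of 1.60 and 1.40, and its partner Ndufv2 ratios of 1.40 and 1.67. Ndufs3, a core subunit of the peripheral arm, had ratios of 1.30 (1.21 to 1.39) and 1.59 (1.29 to 1.97). Ndufs1, the largest core subunit, had 109, 96.3, 37.9 and 44.7 RPKM and lay on opposite sides of 1 in the pairs, with ratios of 0.884 and 1.18. Its interval in the rRNA-depleted pair reached down to 1.

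Among the 29 accessory subunits, which surround the core, 16 were at least 1.5-fold higher in colon in the cDNA fragmented pair, and 14 of the 27 with enough reads in the rRNA-depleted pair, where 42.1 and 42.6% of all genes were. Only Ndufs4, in the rRNA-depleted pair, was as much higher in small intestine. Ndufa8, a twin-cysteine subunit on the intermembrane side, had 109 and 217 RPKM in small intestine and colon in the cDNA fragmented pair and 56.5 and 164 in the rRNA-depleted pair, ratios of 1.99 (1.88 to 2.10) and 2.91 (2.30 to 3.71). In the rRNA-depleted libraries 28.2 and 44.6% of its reads began at a single position, and its ratio reversed when each start position was counted once.

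Ndufa6, a subunit of the peripheral arm, gave 441 and 873 RPKM and 93.8 and 222 RPKM in small intestine and colon, ratios of 1.98 (1.91 to 2.05) and 2.37 (1.88 to 3.01), of which the first turned to −0.008 in log2 with each start position counted once. Ndufa7 had the largest ratio of complex I in the cDNA fragmented pair, 2.66 (2.58 to 2.75), with 444 and 1183 RPKM, but only 27 and 72 reads in the rRNA-depleted pair, where its interval of 0.990 to 2.53 held 1. Ndufs4, whose loss impairs complex I assembly, had 4365, 5654, 53 and 57 reads. It was 1.17-fold (1.13 to 1.22) higher in colon in the cDNA fragmented pair and 1.59-fold (1.07 to 2.35) higher in small intestine in the rRNA-depleted pair, where 47.2 and 42.1% of its reads shared a start position.

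The 4 Ndufaf assembly factors help build complex I without being part of it. Their levels were low, with medians of 21.9, 32.5, 4.21 and 8.91 RPKM. All 4 were at least 1.5-fold higher in colon in the rRNA-depleted pair, and Ndufaf2 and Ndufaf3 were in the cDNA fragmented pair, where 42.6 and 42.1% of all genes were. Ndufaf2 had 408, 843, 3 and 21 reads and ratios of 1.87 (1.66 to 2.11) and 4.10 (1.22 to 21.4), so the higher of the ratios rests on 24 reads. Ndufaf4 had ratios of 0.812 (0.752 to 0.877) and 1.89 (1.28 to 2.85), on opposite sides of 1.

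Complex II, succinate dehydrogenase, which also belongs to the tricarboxylic acid cycle, did not share the shift to colon. Its median was 0.01 in the cDNA fragmented pair and −0.32 in the rRNA-depleted pair, which relative to all genes were −0.36 and −0.72. Sdha, the flavin-bearing catalytic subunit, had 398, 296, 129.6 and 83.8 RPKM and was 1.34-fold (1.32 to 1.37) and 1.55-fold (1.40 to 1.71) higher in small intestine. It was the only member of the 84 with enough reads in both pairs whose intervals lay on the small intestine side in both.

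Sdha covers 15 exon blocks at chr13:74459703-74487688 (mm9), and its lower level in colon was spread along the gene. The log2 ratio was above 0 in only 1 of 15 blocks in the cDNA fragmented pair and in 5 of the 14 with enough reads in the rRNA-depleted pair. Sdhb, the iron-sulfur subunit, had ratios of 0.995 and 1.23. Sdhc, a membrane anchor, had ratios of 1.30 and 0.987, and Sdhd, the other anchor, 1.02 and 0.587, the latter from 298 and 299 reads.

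Complex III, the cytochrome bc1 complex, was divided by role. Its 5 small subunits had medians of 0.88 and 0.59, and its 4 core members, Cyc1, Uqcrfs1, Uqcrc1 and Uqcrc2, 0.16 and 0.31. Uqcr10 (chr11:4601971-4604347, mm9) was 2.93-fold (2.87 to 2.99) higher in colon in the cDNA fragmented pair, from 1104 to 3235 RPKM, the largest ratio of any member with at least 100 reads in that pair, and 1.54-fold (1.10 to 2.21) higher in the rRNA-depleted pair, from 47 to 124 reads. Uqcrq had ratios of 1.84 (1.81 to 1.88) and 1.51 (1.17 to 1.96), and Uqcrh, the acidic hinge protein that contacts cytochrome c1, 1.69 (1.65 to 1.73) and 1.48 (1.29 to 1.70). With each start position counted once, the log2 ratio lay on the small intestine side for Uqcrq in both pairs (−0.018 and −0.211), for Uqcrh in the cDNA fragmented pair (−0.037) and for Uqcr10 in the rRNA-depleted pair (−0.061).

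The 2 large core proteins of complex III, which face the matrix, differed from each other. Uqcrc1 had 161, 105, 186 and 174 RPKM, 1.53-fold (1.47 to 1.59) higher in small intestine in the cDNA fragmented pair with 0 of 13 exon blocks above 0, while the interval of its rRNA-depleted ratio, 0.847 to 1.04, held 1. Uqcrc2 had 399.9, 419, 152 and 398 RPKM, a ratio of 1.05 in the cDNA fragmented pair and of 2.61 (2.35 to 2.90) in the rRNA-depleted pair. All 13 exon blocks of Uqcrc2 at chr7:127778703-127801184 (mm9) were above 0 in the rRNA-depleted pair and 7 of 13 in the cDNA fragmented pair. Each difference was thus seen along the gene and by a single protocol.

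Cyc1, the heme-bearing cytochrome c1, had 117, 138, 219 and 292 RPKM, with tissue ratios of 1.19 (1.13 to 1.24) and 1.33 (1.2 to 1.48). Uqcrfs1, the Rieske iron-sulfur protein, had 308, 435, 215 and 249 RPKM. The ratios of Uqcrfs1 were 1.41 (1.38 to 1.45) and 1.16 (1.05 to 1.29), so both genes were higher in colon by both protocols when scaled by library totals. Median-of-ratios factors lower log2 ratios by 0.40 in the cDNA fragmented pair and 0.34 in the rRNA-depleted pair, so this direction depends on the scaling.

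Cycs (chr6:50512562-50516473, mm9), which encodes the soluble electron carrier cytochrome c, had the most reads of any member in the cDNA fragmented libraries, 64404 and 50273, at 936 and 663 RPKM. It was 1.41-fold (1.40 to 1.43) higher in small intestine in that pair but 1.30-fold (1.17 to 1.46) higher in colon in the rRNA-depleted pair, at 74.4 and 96.9 RPKM. Of its 3 exon blocks, 1 was above 0 in the cDNA fragmented pair and all 3 in the rRNA-depleted pair. Under 1% of its reads fell into the 3′-most of 3 equal parts of its 3059 exonic bases in every library. The same held for Cox7b and Ndufv2. RPKM divides by the whole exonic length, so the levels of such genes are low beside those of evenly read members.

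Complex IV, cytochrome c oxidase, had medians of 0.77 and 0.43. Of its 12 widely expressed small subunits, with Cox7a2l counted among them, 9 were at least 1.5-fold higher in colon in the cDNA fragmented pair. In the rRNA-depleted pair 6 were, and the shares of all genes were 42.1 and 42.6%. Cox8a, the smallest subunit, was 2.02-fold (1.98 to 2.06) and 1.72-fold (1.53 to 1.93) higher, from 1238 to 2496 and 339 to 582 RPKM. Cox6b1 was 1.74-fold (1.71 to 1.77) and 2.07-fold (1.62 to 2.68) higher, and Cox5b 1.66-fold (1.60 to 1.73) and 1.87-fold (1.61 to 2.18). Cox7a2l and Cox7b had larger ratios in the rRNA-depleted pair, 2.75 (2.42 to 3.14) and 2.56 (2.24 to 2.93), than in the cDNA fragmented pair, 1.53 and 1.67. With each start position counted once, the log2 ratio of Cox8a was −0.027 in the rRNA-depleted pair, and those of Cox6b1, Cox7a2l and Cox7b were −0.091, −0.043 and −0.083 in the cDNA fragmented pair, all on the small intestine side.

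Of the complex IV genes with enough reads, Cox6a1, Cox7a1 and Ndufa4 were higher in small intestine by at least 1 protocol. Cox6a1 was 1.44-fold (1.40 to 1.48) higher in colon in the cDNA fragmented pair and 1.70-fold (1.34 to 2.15) higher in small intestine in the rRNA-depleted pair, from 148 and 149 reads. Cox7a1 had a ratio of 1.22 (1.17 to 1.27) in the cDNA fragmented pair and of 0.628 (0.401 to 0.985) in the rRNA-depleted pair, the latter from 41 and 44 reads. Ndufa4, named as a complex I subunit and since assigned to complex IV, had 1049, 896, 46.9 and 35.1 RPKM and was 1.17-fold (1.14 to 1.2) higher in small intestine in the cDNA fragmented pair, with 47 and 60 reads in the other pair, whose interval held 1. Cox4i1 had a ratio of 1.88 (1.85 to 1.91) in the cDNA fragmented pair, while in the rRNA-depleted pair its ratio of 1.23 had an interval of 0.960 to 1.59, and with each start position counted once its log2 ratio in the former pair was −0.025. Cox7c had ratios of 2.41 and 1.33, with the reservation on its copy given above.

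Complex V was near or below the shift of all genes, with medians of 0.27 and 0.39. The genes of the catalytic F1 head, Atp5a1 and Atp5b, were at 1.01 and 1.06 in the cDNA fragmented pair. In the rRNA-depleted pair they parted, since Atp5b was 1.33-fold (1.26 to 1.40) higher in colon, and Atp5a1, at 244 and 127 RPKM, was 1.91-fold (1.76 to 2.08) higher in small intestine. Of the 10 exon blocks of Atp5a1 with enough reads, 1 was above 0 in that pair, against 9 of 12 in the cDNA fragmented pair. The head contains both subunits in equal number, and their mRNA levels did not keep 1 ratio across the rRNA-depleted libraries.

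In the central stalk, Atp5c1 and Atp5d had tissue ratios of 0.925 and 1.32 in the cDNA fragmented pair and of 1.12 and 1.09 in the rRNA-depleted pair. Atp5e (chr2:174286576-174289602, mm9; 414 exonic bases), the smallest stalk subunit, had 7898, 15150, 30 and 28 reads, 1.74-fold (1.69 to 1.79) higher in colon in the cDNA fragmented pair and 1.83-fold (1.06 to 3.18) higher in small intestine in the rRNA-depleted pair. The peripheral stalk genes, which hold the head in place, had medians of 0.21 and 0.61, with Atp5o at 1.13 and 1.58 (−0.425 in log2 in the latter pair with each start position counted once) and Atp5f1 at 0.957 and 1.31. Of the membrane subunits, Atp5j2 was higher in colon by both protocols, at 1.86 (1.82 to 1.90) and 1.56 (1.31 to 1.86), whereas Atp5l was at 1.37 and 0.826. With each start position counted once, Atp5j2 lay on the small intestine side in both pairs (−0.045 and −0.120 in log2).

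Setting the members by role across complexes, the 16 catalytic and core genes (the core of complexes I and III with Sdha, Sdhb, Atp5a1, Atp5b and Atp5c1) had medians of 0.14 and 0.41 and the other 68 structural genes, Cycs being left out of both classes, 0.74 and 0.56, of which 64 and 60 had enough reads. The order of these medians was the same by both protocols, with a wider gap in the cDNA fragmented pair, but within complex I the order turned in the rRNA-depleted pair, as given above.

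The pairs of libraries share no library, so they are 2 measurements of the tissue difference by different protocols, but they may share animals. The study describes its tissues as coming from the same individuals, and whether both protocols used the same mice was not given in the sources used here. Of the 84 members with enough reads in both, 62 had the same sign, as had 8241 of 11772 genes. Both intervals lay on the colon side of 1 for 42 members (50%, against 31.6% of all genes), and on the small intestine side for 1 (1.19% against 12.3%). For 11 members (13.1% against 11.3%) the intervals lay on opposite sides of 1, and since members have more reads than most genes, their intervals are narrower. The 11 were Atp5c1, Atp5e, Atp5f1, Atp5g3, Atp5l, Cox6a1, Cox7a1, Cycs, Ndufaf4, Ndufs1 and Ndufs4. At least 1 interval held 1 for the other 30. Counting intervals alone thus did not cover the gap between protocols for these 11 genes. Nor did they for some members with both ratios on the colon side. The intervals of Uqcr10, Cox8a, Ndufa8 and Uqcrfs1, given above, did not overlap between the pairs.

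At 1.5-fold, 25 members (29.8%) were higher in colon by both protocols, where 25.2% of all genes were, and 0 were higher in small intestine by both, where 8.28% were. The 25 included 10 genes of complex I (Ndufa1, Ndufa6, Ndufa7, Ndufa8, Ndufa11, Ndufb4, Ndufb9, Ndufb11, Ndufs8 and Ndufv3), 6 of complex IV (Cox5b, Cox6b1, Cox7a2, Cox7a2l, Cox7b and Cox8a), the small complex III subunits Uqcr10 and Uqcrq, and Atp5g1, Atp5g2 and Atp5j2 of complex V. With each start position counted once, some of the 25 turned to the small intestine side in either or both pairs. They included Atp5g1, Atp5j2, Cox6b1, Cox7a2, Cox7a2l, Cox7b, Cox8a, Ndufa6, Ndufa8, Uqcr10 and Uqcrq. Under median-of-ratios factors fewer members passed 1.5-fold in colon in each pair, as given above. Across the members the Pearson and Spearman correlations of the log2 ratios of the pairs were 0.370 and 0.379 (n = 84 genes), and 0.672 and 0.532 over the 11772 genes. Genes are not independent replicates, and within a pair all share the same libraries.

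**Figure D4:**
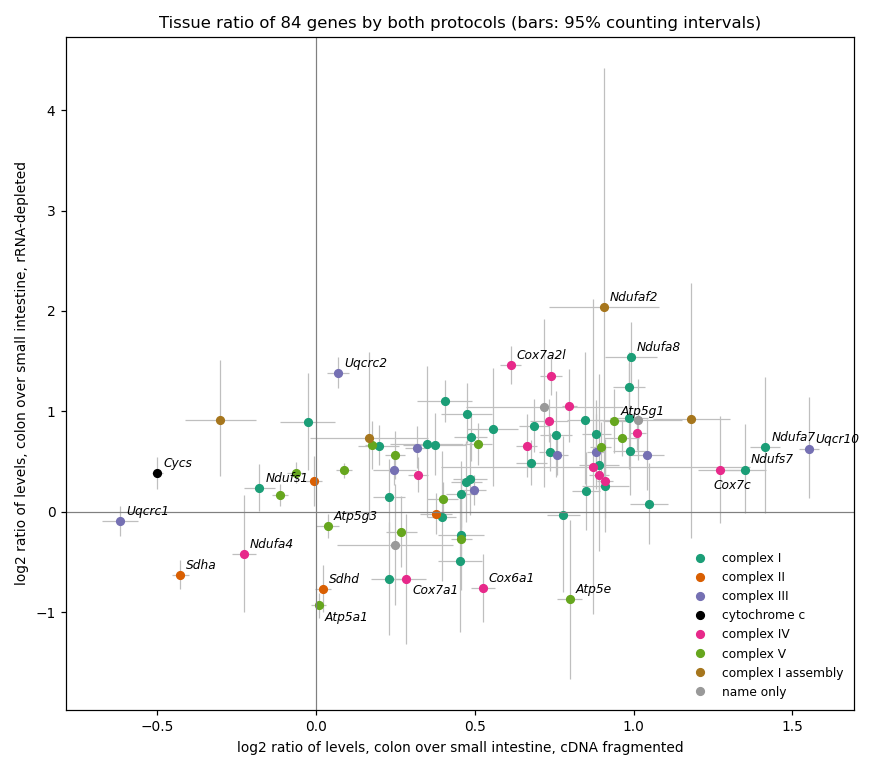
Log2 ratio of colon over small intestine in the rRNA-depleted pair (vertical) against the cDNA fragmented pair (horizontal). Each point is 1 of the 84 members with at least 20 reads in both pairs, coloured by complex, and bars are exact 95% counting intervals. Most points, 62 of 84, lie in the quadrants where both ratios have the same sign, and Sdha lies at the lower left.

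Exonic length moved with these values. The median member had 665 exonic bases, against 2310 for all genes. In the cDNA fragmented pair the median log2 tissue ratio of members fell with length, from 0.89 under 500 bases through 0.65 at 500 to 999 and 0.25 at 1000 to 1999 to −0.08 at 2000 bases or more. All genes showed 0.89, 0.73, 0.50 and 0.28 in the same classes, so members of 500 bases or more lay below genes of similar length. In the rRNA-depleted pair the members had 0.56, 0.56, 0.49 and 0.31 and all genes 0.55, 0.62, 0.63 and 0.30. Of the members in the longest class, Cycs, Ndufa11 and Ndufaf4 had at most 3.23% of their reads in the 3′-most part. For these the class may overstate the length that was read. The catalytic and core genes are mostly long and the small subunits short, and the part of length in the gap between them was not tested.

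As a description, Spearman's rho between exonic length and the tissue ratio was −0.471 over 88 members in the cDNA fragmented pair and 0.075 over 84 in the rRNA-depleted pair, and −0.157 over all genes in both. Points in a pair share both libraries. The GC content of the exons also moved with the tissue ratio in the cDNA fragmented pair, but with the opposite sign. Members had a median GC of 52.2% against 49.7% for all genes, and rho between GC and the tissue ratio was 0.491 in the cDNA fragmented pair and 0.020 in the rRNA-depleted pair, with 0.367 and 0.022 over all genes. Members of the cDNA fragmented pair had median log2 ratios of 0.32 under 45% GC, 0.46 at 45 to 50%, 0.47 at 50 to 55% and 0.91 at 55% or more, and all genes −0.12, 0.22, 0.52 and 0.82. In the rRNA-depleted pair, members had 0.64, 0.30, 0.51 and 0.59 and all genes 0.35, 0.39, 0.43 and 0.42 in the same classes.

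Compared within a tissue, the rRNA-depleted library gave far lower levels of the members than the cDNA fragmented one. The median log2 ratio was −2.06 in small intestine and −2.13 in colon, while all genes had 0.32 and 0.49. In small intestine 71 of 87 members (81.6%) were at least 1.5-fold lower, against 31.6% of all genes, and in colon 68 of 88 (77.3%) against 27.2%. At least 1.5-fold higher were Cyc1 and Cox4i2 in small intestine (2.30% against 45.1% of all genes) and Cyc1, Ndufa10 and Uqcrc1 in colon (3.41% against 48.6%).

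Cyc1 was 1.88-fold (1.71 to 2.06) and 2.11-fold (1.98 to 2.25) higher in the rRNA-depleted library. Ndufa2, an accessory subunit with 236 exonic bases, stood at the opposite end, with 2114, 5585, 1 and 0 reads. Set against a floor of 3 reads in that library, its level in colon was at least 261-fold lower by the rRNA-depleted protocol. Atp5e was 23.8-fold (16.7 to 35.3) and 75.9-fold (52.5 to 114) lower, and Cox6b1 23.7-fold and 19.8-fold lower.

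This too moved with length. Members under 500 bases had median log2 ratios of −3.86 and −4.04 in small intestine and colon, those of 500 to 999 bases −1.92 and −2.24, those of 1000 to 1999 bases −1.10 and −0.82, and those of 2000 bases or more −1.57 and −1.46. All genes had −1.97 and −1.82 in the shortest class and 0.77 and 0.90 in the longest. Members were lower than all genes in every length class. By the labels the selection of RNA changed with the protocol, and priming, amplification and depth changed with it. RNA isolation, sequencing run and animals may have differed as well, and none of these can be told apart.

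**Figure D5:**
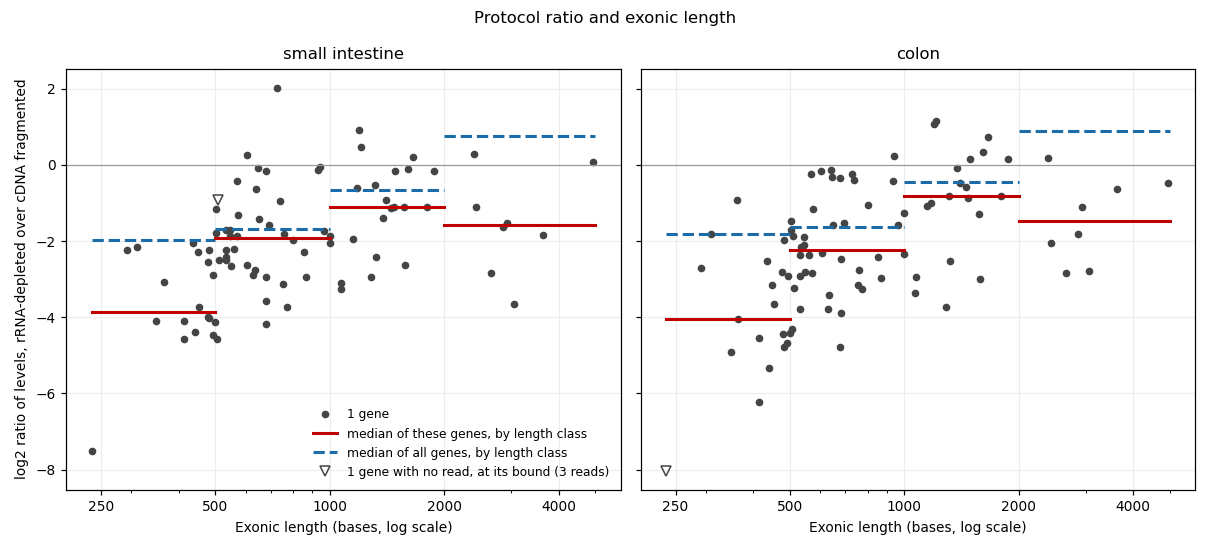
Log2 ratio of the rRNA-depleted over the cDNA fragmented library (vertical) against exonic length in bases (horizontal, log scale) for small intestine and colon. Points are members and the lines are medians by length class for members and for all genes. Members lie below all genes in each class, with medians of −3.86 against −1.97 under 500 bases in small intestine.

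Of the roles within the complexes, the gap between protocols was smallest for the core genes of complex III, with medians of −0.16 and 0.32, and for the c ring, with −0.17 and −0.35. It was large for accessory subunits of complex I, at −2.43 and −2.82, and for membrane subunits of complex V, at −2.50 and −2.81. Within the c ring, Atp5g2 and Atp5g3 differed between protocols by at most 1.27-fold, while Atp5g1 was 7.68-fold and 7.90-fold lower.

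Strand gave a check for antisense reads only. It cannot detect reads from copies elsewhere in the genome that are transcribed in the same sense. In the rRNA-depleted libraries 99.9% of the reads on members in each tissue lay on the annotated strand, with 20 of 19567 and 28 of 43826 antisense, and all genes had 98.4%. In the cDNA fragmented libraries, which do not keep strand, 46.3 and 44.3% did. In the rRNA-depleted libraries the reads counted here were thus almost entirely those of the members' own strand. Some bases of Atp5f1, Atp5j, Ndufb5, Ndufb11 and Uqcrb are shared with an exon of the neighbouring genes Wdr77, Gabpa, Mrpl47, Rbm10 and Gm10767, and reads on these bases cannot be told apart without strand.

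As medians over genes, 39.6, 35.8, 36.3 and 33.3% of a member's reads fell into the 3′-most of 3 equal parts of the exonic sequence, and 15.3, 16.1, 14.7 and 16.1% into the 5′-most. The medians of all genes were 46.3, 47.5, 34.2 and 33.1% at the 3′ side and 17.6, 16.9, 26.9 and 28.3% at the 5′ side. Genes under 2000 bases, nearer to the members in length, had 41.0, 40.4, 37.0 and 34.7% at the 3′ side and 20.2, 20.3, 21.1 and 23.2% at the 5′ side, so members were lower than these at the 5′ side in every library. Reads were also denser, since 73.0 and 77.9% of the possible start positions of the median member were used in the cDNA fragmented libraries and 8.66 and 14.4% in the rRNA-depleted ones, against 5.89, 6.39, 1.95 and 2.93% for all genes.

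In the rRNA-depleted libraries some members drew much of their count from a single start position. For Ndufa1 it held 53.7 and 53.0% of the reads, for Uqcrfs1 44.8 and 44.7%, and for Cox8a 35.9 and 33.4%. Cox6b1 differed between tissues in this respect, at 10.8% in small intestine and 35% in colon. Of the 50 members with enough reads in which no position held over 20% in either library, 24 (48.0%) were at least 1.5-fold higher in colon in the rRNA-depleted pair, against 37.7% of such genes, and 3 (6.00%) in small intestine against 20.5%. The latter were Atp5a1, Cox6a1 and Sdha.

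Other mitochondrial genes gave the members a setting. The 75 genes of mitochondrial ribosomal proteins, which translate the mitochondrially encoded subunits, resembled the members, with median log2 tissue ratios of 0.61 and 0.54. Of these, 40 were at least 1.5-fold higher in colon and 0 in small intestine in the cDNA fragmented pair, and 36 and 5 of 73 in the rRNA-depleted pair. The shares over all genes were 42.1 and 15.8% in the former pair and 42.6 and 19.4% in the latter. Of the complex IV assembly factors, 11 of 17 symbols were found, with medians of 0.72 and 0.37.

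The 14 genes of the tricarboxylic acid cycle, which supplies NADH and succinate, had medians of −0.22 and −0.20. In the cDNA fragmented pair 4 were at least 1.5-fold higher in colon and 4 in small intestine, against 42.1 and 15.8% of all genes. In the rRNA-depleted pair the counts were 6 and 4, against 42.6 and 19.4%. Their summed level was 4743, 3163, 1511 and 1355 RPKM, lower in colon by both protocols. This order rested on Mdh2, mitochondrial malate dehydrogenase, which had 2701, 1082, 413 and 84.5 RPKM. Without it the other 13 genes summed to 2042, 2081, 1097 and 1270.1 RPKM, higher in colon by both protocols. The medians of complex II, 0.01 and −0.32, whose genes belong to both systems and were not counted in the list, were likewise below those of all genes.

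The 13 genes of mitochondrial transcription and its regulators had medians of 0.35 and −0.25. Ppargc1a, a coactivator of mitochondrial biogenesis, had 13.1, 7.07, 20.1 and 10.6 RPKM, lower in colon by both protocols. Tfam, which binds mitochondrial DNA, had 7.75, 8.66, 7.65 and 6.38 RPKM, and Nrf1 4.11, 5.76, 5.79 and 2.75. Ppargc1b, the paralogue of Ppargc1a, had 0.803, 2.45, 11.96 and 10.1 RPKM. Of the list, 8 of 13 genes had a ratio above 1 in the cDNA fragmented pair and 4 of the 12 with enough reads in the rRNA-depleted pair, as had 9463 of 14244 and 7748 of 11953 of all genes.

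The levels of cell type markers also differed between the libraries. All 8 smooth muscle markers were at least 1.5-fold higher in colon in both pairs, with summed levels of 308 and 1281 RPKM in the cDNA fragmented libraries of small intestine and colon, and 250.4 and 2445 in the rRNA-depleted ones. Epithelial markers differed among themselves. They summed to 9922, 5268, 4629 and 6317 RPKM, and of the 8, 3 were at least 1.5-fold higher in colon and 3 in small intestine in each pair, with median log2 ratios of 0.07 and −0.31. Krt19, a keratin, had 271, 895, 796 and 2441 RPKM, whereas Krt20, an intestinal keratin, had 7525, 2503, 653 and 116, and Vil1, the microvillus protein villin, 422, 115, 796.5 and 237. Immune cell markers summed to 1910, 254, 1593 and 346 RPKM, of which Cd74, the class II invariant chain, gave 1781, 139.7, 1556 and 292. The other 4 summed to 128, 114, 37.0 and 53.7, in opposite order between tissues by the protocols. Markers of enteric neurons and glia summed to 8.96, 20.3, 6.13 and 27.9 RPKM, and those of testis germ cells to at most 0.391. The part of these differences in the values of the members was not tested.

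Finally, promoters were read for the letters that respiratory gene regulators are known to bind. RefSeq windows of 250 bases before the gene start (GRCm38.p6) matched 75 of the 92 members. The letters GCGCATGCG, a form of the site of NRF-1, occurred on either strand in 8 (10.7%), against 1.64% of all 27025 genes, and CCGGAAG, a form of the ETS site that GABP binds, in 13 (17.3%), against 7.83%. Windows of Cycs and Cox6a1, whose tissue ratios had opposite signs by the 2 protocols, are shown as examples, with the matched letters or their reverse complement in capitals, including 1 overlapping match in Cox6a1; they lie on the minus strand at chr6:50566570-50566819 and chr5:115348959-115349208 (GRCm38.p6):
Cycs: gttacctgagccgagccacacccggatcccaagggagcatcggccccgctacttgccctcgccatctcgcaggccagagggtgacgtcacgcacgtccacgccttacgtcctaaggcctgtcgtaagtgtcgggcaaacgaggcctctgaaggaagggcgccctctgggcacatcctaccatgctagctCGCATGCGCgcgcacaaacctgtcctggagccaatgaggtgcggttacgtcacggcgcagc
Cox6a1: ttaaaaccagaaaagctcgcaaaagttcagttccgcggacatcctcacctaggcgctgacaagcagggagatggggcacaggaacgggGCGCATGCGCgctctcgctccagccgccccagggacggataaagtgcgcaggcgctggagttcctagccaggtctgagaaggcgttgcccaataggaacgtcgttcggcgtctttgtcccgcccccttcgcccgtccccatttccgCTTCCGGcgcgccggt

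Of the members at least 1.5-fold higher in colon by both protocols, 23 had a window, of which 3 held the NRF-1 letters and 1 the ETS letters. Of the other 52, 5 and 12 did. A match is a description of the letters only.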

How the data were processed

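The authors deposited, per library, SOLiD color-space reads of 35 bases matched to RefSeq exons and exon junctions of mm9 with at most 3 color mismatches, in match and summary files of other formats that hold no expression values; whether a read was unique was judged among exons and junctions only. Uniquely placed reads (5′ start, strand) were assigned here to the exon blocks of the condensed genes, and junction reads, 0.754 to 0.822% of the uniquely placed reads, were not assigned. Members, roles and lists were chosen with earlier results of these data known. Ratios used genes with at least 20 reads in the pair, RPKM plus 0.1, and a threshold of 1.5-fold; library totals scaled the counts. Genes named singly are isoform sets, the 3 highest and 2 lowest per complex, complex II, Cyc1, Cycs, complex I core subunits and the 5 largest ratios per direction with at least 100 reads; others were named because their values stood out. Values of 1 member are not reported here singly, though it entered the counts and medians. Intervals are Clopper-Pearson (ratios, shares) and exact Poisson (levels) at 95%, with a floor of 3 reads for a count of 0. The scripts were tested on simulated data. Alternatives were the median of ratios, at most 1 mismatch, each start point counted once, sense reads, structural subunits, other minima and pseudocounts, and 4 chosen after seeing the data. Python 3.11.15, numpy 2.4.6, pandas 2.3.3, scipy 1.17.1 and matplotlib 3.10.9 were used.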

Additional observations from a re-analysis of the deposited data

Results flagged for a closer look

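Among the 84 members with at least 20 reads in both pairs, Atp5e was the one whose tissue difference stood furthest apart between protocols, with a log2 ratio of colon over small intestine of 0.80 in the cDNA fragmented pair and −0.87 in the rRNA-depleted pair. The latter rests on 30 and 28 reads, against 7898 and 15150 in the former. With 1 library per tissue and protocol the difference between the pairs was not tested.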

How the results depend on the processing

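The labels give no replicate numbers and each tissue and protocol had 1 library, so no paired analysis was run and no replicate could be left out. A fit with protocol as a block would have 1 residual degree of freedom and was not run either. Scaled by median-of-ratios size factors, the median log2 tissue ratios of the members were 0.137 (cDNA fragmented) and 0.182 (rRNA-depleted), 14 and 11 members were at least 1.5-fold higher in colon and 5 and 11 in small intestine, and the medians of the protocol ratio were −2.670 in small intestine and −2.794 in colon. With each start point counted once, the tissue medians were −0.005 and 0.000. At least 1.5-fold higher were 5 and 6 members in colon and 0 and 6 in small intestine. No share of all genes is given for this count, so whether these are few or many is not known. The protocol medians were −0.738 and −0.805, and the shares of the members were 1.085, 1.075, 0.742 and 0.697%. Among the ratios of genes named singly, those that turned to the small intestine side under this count are given here in log2. Other members were not listed. In the cDNA fragmented pair they were Atp5g1 −0.013, Atp5j2 −0.045, Cox4i1 −0.025, Cox6b1 −0.091, Cox7a2 −0.039, Cox7a2l −0.043, Cox7b −0.083, Ndufa6 −0.008, Uqcrh −0.037 and Uqcrq −0.018. In the rRNA-depleted pair they were Atp5j2 −0.120, Atp5o −0.425, Cox8a −0.027, Ndufa8 −0.263, Uqcr10 −0.061 and Uqcrq −0.211. The cause was not tested. Start positions were mostly in use already in the cDNA fragmented libraries, which limits what this count can show there, but not in the rRNA-depleted ones. At most 1 color mismatch gave shares of 3.350, 4.437, 0.979 and 1.286%, structural subunits alone 3.254, 4.371 and 1.244% where the share moved beyond its interval (the exception being rRNA-depleted small intestine), and sense reads alone 0.984 and 1.292% in the rRNA-depleted libraries. Without a minimum of reads 2 members were higher in small intestine in the cDNA fragmented pair, and with a penalty of 0.1 RPKM the 3-fold rule called 1 member in colon in each pair. The shares of all genes at these settings are not given either. Among alternatives chosen after seeing the data, levels per start position had medians of 385.0, 657.3, 86.8 and 106.9 RPKM, and leaving out members with over 20% of reads at a single position gave 24 members higher in colon and 3 in small intestine in the rRNA-depleted pair. Leaving out Ndufs5 and Cox7c, a pseudocount of 1 RPKM and a minimum of 100 reads moved no median beyond its interval and no count by over 1.5 times. Of the values of single genes, 76 stayed within their counting interval at 1 mismatch and 26 moved, against 21 and 81 with the median of ratios and 22 and 64 with start points.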
